A study of Mus musculus with 15 samples.

Results

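The 47 genes described here are mouse interferon-stimulated genes, listed by symbol from knowledge of the interferon response. Earlier results of these data were known when the list was made, so the shares called below do not come from a list blind to the data. Each gene matched 1 row, so they make up 47 of the 55471 genes in the deposited table. By role they form 7 classes. These are 4 sensors of viral or misplaced nucleic acid, 4 STAT and IRF transcription factors, 8 genes of the ISG15 system with ubiquitin ligases and PARPs, 6 OAS genes, 4 IFIT genes, 8 interferon-induced GTPases and 13 other effectors.

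Interferons are secreted proteins that warn cells of infection. Type I and type III interferons act through JAK kinases on STAT factors, which bind DNA together with IRF9 at the interferon-stimulated response element (ISRE). Type II interferon acts mainly through another DNA element, called GAS. The genes switched on in this way sense foreign RNA and DNA, block viral replication, and feed back on the pathway, and many cultured cells keep a low level of them without added interferon.

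Poly(A) RNA of 15 libraries was sequenced, all of cells labelled MSCLCs, an abbreviation that is not spelled out. The title of the series speaks of mesenchymal stem cells of bone, the fusion factor EWS::FLI1, YAP1 and IGF-1. Experiment 1 compared 3 libraries with the genotype label MSC (title numbers 202, 234 and 237) with 4 labelled EFPrx1MSCLC (219, 221, 225 and 229). The design text calls the MSC libraries WT, but only the titles of 234 and 237 add WT, and that of 202 does not. Experiment 2 held 2 libraries labelled EF, 2 labelled ha and 4 labelled hr. The design text writes these groups as EFPrx1, ha-EFPrx1 and hr-EFPrx1, so all 3 groups share that label, and every title carries the number 221, so they may stem from 1 line. Titles of ha add Combi and T with a number (here ha 1 and ha 2), those of hr add Combi and uns with 2 numbers (line uns-1 with libraries hr 1-1 and hr 1-2, line uns-2 with hr 2-1 and hr 2-2), and those of EF add neither. The labels do not say what EF, ha, hr and Prx1 stand for, any treatment, and the age of the animals. Nor do they say whether libraries of a group came from separate cultures, so each p-value rests on a spread between libraries that may be only technical.

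Library totals ran from 14906180 to 26833876 counts in experiment 1 and from 11195371 to 16378368 in experiment 2, on different flowcells, and the experiments were not tested against each other. Median squared count differences between the EF libraries were 1.35 times those of counting noise. Between the libraries of each hr line they were 1.30 and 1.31 times, against 19.6 times for the ha libraries. The EF pair and each hr pair, being that close, may be repeat libraries of 1 culture. In experiment 1, MSC 202 lay at 102 and 72.6 times from 234 and 237, which were 10.8 times apart. EFPrx1MSCLC 221 and 229 were 7.15 times apart, and the other pairs of that group 44.3 to 85.9 times. All 12 mesenchymal marker genes had counts in every group, with a summed level of 4486 to 20060 CPM (counts scaled to library size). The summed level of 16 hematopoietic and macrophage markers was 12388 to 34551 CPM in MSC, 49.6 to 436 CPM in EFPrx1MSCLC and 8.25 to 29.8 CPM in experiment 2.

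A short motif, GAAANNGAAA on either strand, was used as an ISRE-like match, and TTCNNNGAA as a GAS-like match (N is any base, and matches may overlap). RefSeq promoter windows (GRCm38.p6, 250 bases before to 50 bases after each gene's start) were found for 35 of the 47 genes. The ISRE-like motif stood in 19 of their 43 windows (44.2%), against 1131 of 32851 windows of all genes (3.44%). The GAS-like motif stood in 9 of 43 (20.9%) against 2726 of 32851 (8.30%). By gene, 18 of the 35 had an ISRE-like match. The 60-base stretches below are shown because they carry the matches of genes whose levels are described next. Matches are in capitals, each stretch reads 5′ to 3′ along the gene's own strand, and the first 7 belong to genes higher in ha than in EF, the last 2 to genes not called there.
Isg15 (chr4:156200862-156200921, - strand): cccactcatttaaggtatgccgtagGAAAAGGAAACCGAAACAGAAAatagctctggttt
Oas1a (chr5:120907511-120907570, - strand): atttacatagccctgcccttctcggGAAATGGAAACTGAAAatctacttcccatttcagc
Ifit1 (chr19:34640760-34640819, + strand): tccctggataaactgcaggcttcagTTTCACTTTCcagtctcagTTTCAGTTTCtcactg
Ifit3 (chr19:34583348-34583407, + strand): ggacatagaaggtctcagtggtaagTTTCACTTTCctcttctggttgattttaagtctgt
Gbp3 (chr3:142559974-142560033, + strand): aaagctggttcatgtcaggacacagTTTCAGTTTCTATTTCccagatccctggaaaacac
Rsad2 (chr12:26456538-26456597, - strand): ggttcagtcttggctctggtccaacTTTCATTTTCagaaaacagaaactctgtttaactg
Bst2 (chr8:71537568-71537627, - strand): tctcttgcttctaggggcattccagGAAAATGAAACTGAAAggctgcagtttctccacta
Oas3 (chr5:120777700-120777759, - strand): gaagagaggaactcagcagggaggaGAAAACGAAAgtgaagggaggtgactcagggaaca
Irgm1 (chr11:48871416-48871475, - strand): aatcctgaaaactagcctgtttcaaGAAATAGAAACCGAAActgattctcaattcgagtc
Isg15 had 3 overlapping matches, with first bases 78, 72 and 66 bases before the start. The stretches of Ifit3 and of its neighbour Ifit3b (chr19:34607744-34607803, + strand) were identical at 60 of 60 bases, and reads of these 2 genes may not have been separated. A match describes letters only: it is neither a shown binding site nor a cause of any difference reported here. Of the 24 genes with a window that were higher in ha than in EF, 15 had an ISRE-like match, and of the 9 not called, 3 had one (Oas3, Irgm1 and Eif2ak2). A GAS-like match stood in 4 of the 24, in 4 of the 9 (Irf1, Ifit2, Eif2ak2 and Ifi35) and in Isg20, the 1 gene that was lower.

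**Figure D1:**
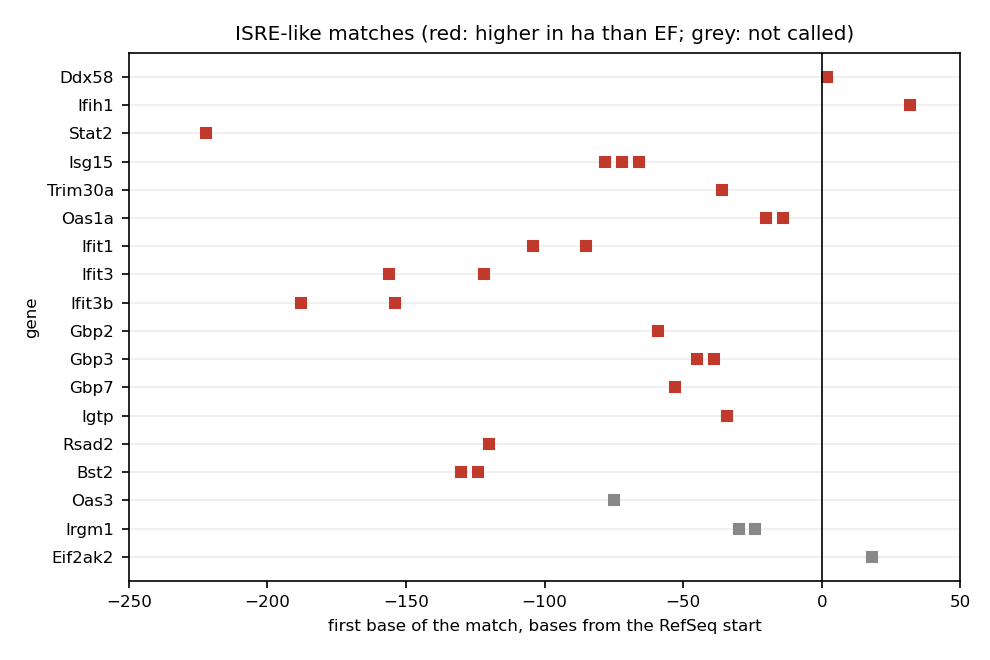
Distance of each ISRE-like match from the RefSeq gene start (x axis, in bases, negative before the start) for the 18 genes that had one (y axis; 1 window per gene). Red marks the 15 genes higher in ha than in EF and grey the 3 not called; matches run from 222 bases before the start (Stat2) to 32 bases after it (Ifih1).

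In ha against EF, interferon-stimulated genes of every class were higher in ha: of 46 genes tested, 35 rose (76.1%), 1 fell (2.17%) and 10 were not called, by edgeR's quasi-likelihood test with Benjamini-Hochberg adjustment at 0.05. Over all 13998 genes tested in the same comparison 23.0% were called higher and 19.6% lower. The median log2 fold change of the 46 genes was 2.82, and the same with genes lacking counts set to their bound, against 0.05 over all genes. Oasl1, with 0 counts in EF, was too low to test. Since these are bulk RNA samples, fewer cells of a type and less RNA per cell cannot be told apart here or in any comparison below.

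**Figure D2:**
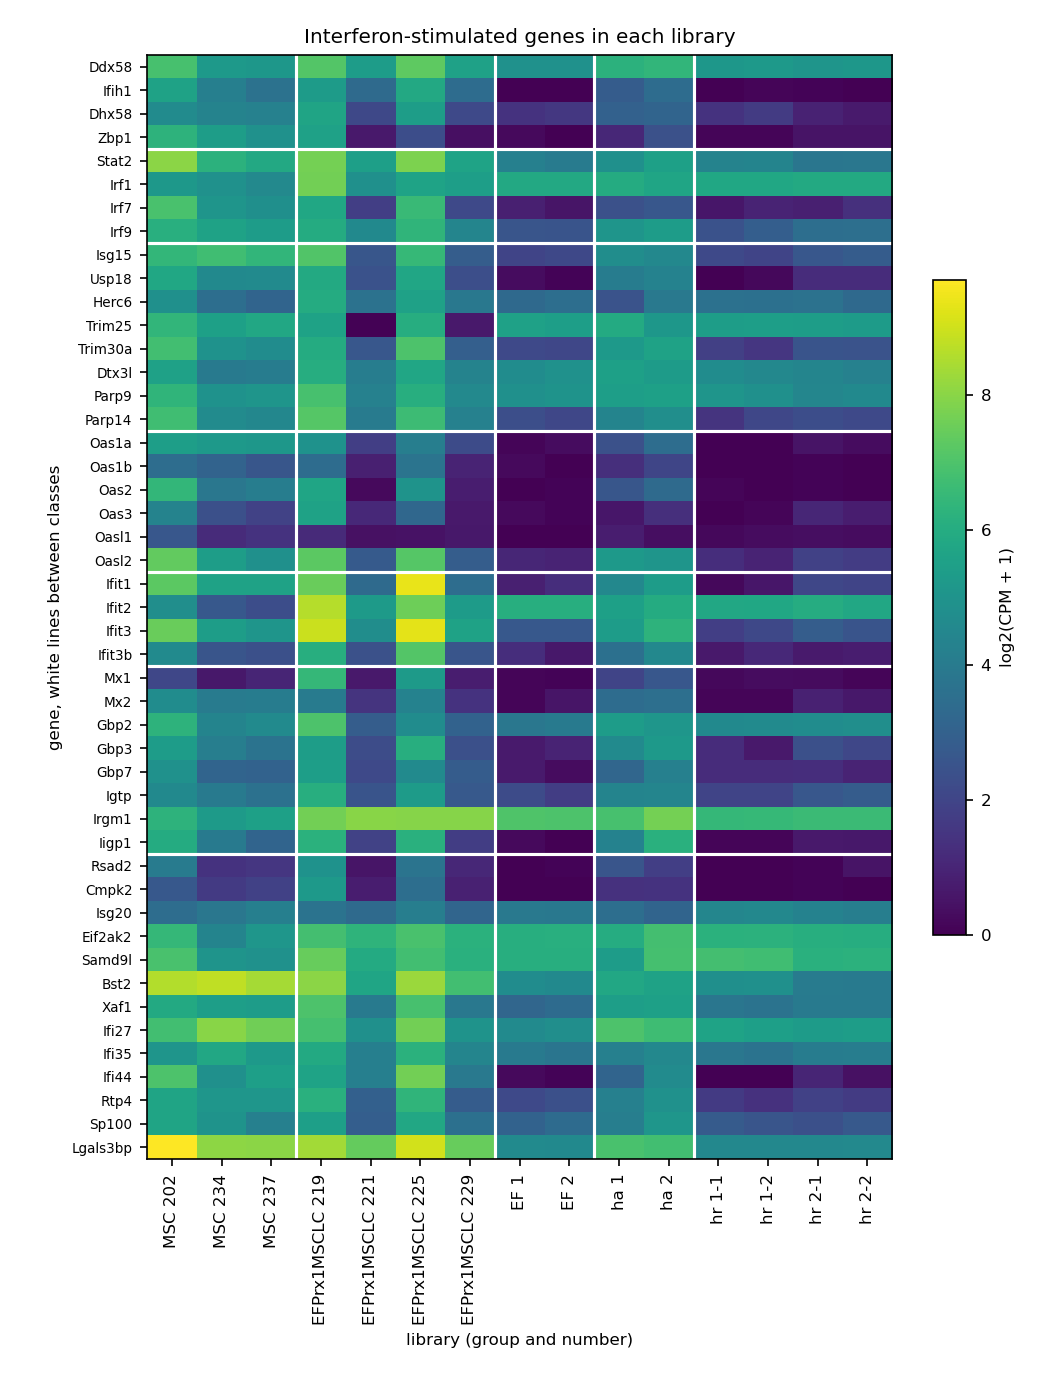
Level of all 47 genes (rows, ordered by class) in all 15 libraries (columns), as log2(CPM + 1), with CPM scaled within each experiment. In experiment 2 the ha columns stand brighter than EF and hr for most rows, while Irf1, Trim25 and Ifit2 keep a similar colour; in experiment 1 the columns 219, 225 and 202 stand brighter than the rest.

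All 4 sensors rose. Ddx58, which encodes the RNA sensor RIG-I, stood at 28.7 and 29.3 CPM in EF and at 74.2 and 82.9 CPM in ha, a log2 fold change of 1.44 ± 0.11 (SE; adjusted p = 0.000193, edgeR). Ifih1, encoding the long double-stranded RNA sensor MDA5, had 0 counts in both EF libraries and 6.06 and 9.77 CPM in ha, at least 64.4-fold higher against a floor of 3 counts over the EF group. Neither sensor overlapped between the groups, and the share of all genes without overlap in this comparison was not counted. Dhx58, whose product LGP2 tunes the other RNA sensors, rose from 1.68 and 1.99 CPM to 7.01 and 7.71 CPM (1.99 ± 0.52, adjusted p = 0.0185, edgeR). Zbp1, a sensor of Z-form nucleic acid, went from 0.177 and 0 CPM to 1.10 and 4.36 CPM; the ratio of summed counts was 34.5 with an exact 95% interval of 9.28 to 289, which like all such intervals here covers counting error only.

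The partner factors Stat2 and Irf9 and the amplifying factor Irf7 rose, and Irf1 did not pass the test. Irf9 stood at 4.96 and 4.78 CPM in EF and 32.3 and 40.7 CPM in ha (2.90 ± 0.41, adjusted p = 0.00158, edgeR). Stat2 rose less, from 17.8 and 15.5 CPM to 28.4 and 44.7 CPM (1.13 ± 0.29, adjusted p = 0.0167). The Stat2 call was lost without EF 1, without EF 2, without ha 2 and with close libraries summed, with adjusted p-values of 0.00214 to 0.155 over the alternatives. Irf7 was low, at 0.797 and 0.478 CPM in EF and 4.24 and 5.24 CPM in ha (2.88 ± 0.54, adjusted p = 0.0047, edgeR). Irf1, a factor that also answers to type II interferon, stood at 57.1 and 56.3 CPM in EF and 61.5 and 51.7 CPM in ha, and the ha values lay on both sides of EF.

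In the ISG15 class 5 of 8 genes rose. Isg15, a ubiquitin-like protein that is attached to other proteins (ENSMUSG00000035692, chromosome 4, 156199424 to 156200818 on GRCm38), stood at 3.01 and 3.35 CPM in EF and 25.7 and 22.0 CPM in ha (2.90 ± 0.36, adjusted p = 0.000937, edgeR). Usp18, which removes ISG15 and also restrains the type I receptor, went from 0.266 and 0.0797 CPM to 15.8 and 18.5 CPM (6.59 ± 1.29, adjusted p = 0.0056, edgeR). Both ha values of each gene were above its EF values. Trim30a (3.67 ± 0.43), Parp14 (2.70 ± 0.36) and Dtx3l (0.62 ± 0.17) rose as well. The ubiquitin ligase Trim25, the mouse ISG15 ligase Herc6 and Parp9 were not called. Herc6 was 4.60 CPM in ha 1 and 14.1 CPM in ha 2, on either side of its EF values of 9.04 and 10.4 CPM. Usp18, Irf9, Irf7 and Dhx58 each share exon positions with another annotated gene (Gm44148, Rnf31, Phrf1 and Dhx58os), as Dtx3l and Parp9 do with each other, so their reads may be mixed.

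Among the OAS genes, whose enzymes sense double-stranded RNA, 4 of the 5 tested rose. Oasl2 (ENSMUSG00000029561, chromosome 5, 114896936 to 114912234), a relative with ubiquitin-like domains, stood at 1.06 and 0.957 CPM in EF and 36.7 and 32.8 CPM in ha (5.09 ± 0.45, adjusted p = 0.000316, edgeR). Oas1a went from 0.0886 and 0.239 CPM to 4.24 and 10.1 CPM (5.35 ± 1.13, adjusted p = 0.00766, edgeR). Oas2 had 1 count and Oas1b 2 counts in EF in all, and their ratios were 176 (31.3 to 6984) and 27.9 (7.45 to 235). The exception was Oas3, at 0.177 and 0.0797 CPM in EF and 0.511 and 1.47 CPM in ha, with an adjusted p of 0.159.

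Of the 4 genes for RNA-binding IFIT proteins, 3 rose. Ifit1 (ENSMUSG00000034459, chromosome 19, 34640871 to 34650009) stood at 0.797 and 1.44 CPM in EF and 21.9 and 40.3 CPM in ha (4.78 ± 1.05, adjusted p = 0.00905, edgeR). Ifit3 rose from 5.32 and 5.34 CPM to 39.7 and 76.0 CPM (3.44 ± 0.46, adjusted p = 0.00131, edgeR) and Ifit3b by 4.08 ± 0.56. Ifit2 stood at 66.5 and 66.7 CPM in EF and at 45.2 and 62.4 CPM in ha, a log2 difference of -0.31 ± 0.16 with an adjusted p of 0.158. Both ha values of Ifit2 lay below EF, without a call.

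Of the 8 interferon-induced GTPases, which act against viruses and on the membranes around intracellular pathogens, 7 rose. Gbp3 went from 0.62 and 0.957 CPM to 23.9 and 36.6 CPM (5.24 ± 0.83, adjusted p = 0.00249, edgeR). Gbp7 (4.91 ± 0.56), Mx2 (5.10 ± 0.96), Igtp (2.75 ± 0.41) and Gbp2 (1.36 ± 0.15) rose too. Iigp1 and Mx1 had 2 counts each in EF, and their ratios were 564 (156 to 4660) and 50.02 (13.6 to 417). Irgm1, a regulator of the family, stood at 128 and 127 CPM in EF and 118 and 201 CPM in ha, so ha 1 lay below and ha 2 above EF, and it was not called.

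Of the 13 other effectors 9 rose and 1 fell. Lgals3bp (ENSMUSG00000033880, chromosome 11, 118392751 to 118402092), a secreted glycoprotein, had the lowest adjusted p of the 47 genes: 23.9 and 23.2 CPM in EF and 119 and 106 CPM in ha (2.26 ± 0.10, adjusted p = 2.69e-05, edgeR). Xaf1, a pro-apoptotic protein, rose from 8.24 and 9.57 CPM to 42.9 and 44.3 CPM (2.29 ± 0.16, adjusted p = 0.000147, edgeR). Ifi27 rose by 2.17 ± 0.16 and Rtp4, a receptor-transporting protein, by 2.62 ± 0.32. Bst2, the tetherin that holds budding virions, rose from 25.3 and 23.2 CPM to 55.9 and 47.6 CPM (1.09 ± 0.34, adjusted p = 0.033, edgeR), a call lost without any 1 of the EF or ha libraries (adjusted p from 0.000227 to 0.17 over the alternatives). Rsad2 (viperin) went from 0 and 0.0797 CPM to 4.90 and 2.47 CPM, a ratio of 84.5 (14.9 to 3369), and Ifi44 had a ratio of 136 (46.2 to 660). Cmpk2, a nucleotide kinase next to Rsad2, had 0 counts in EF and 1.61 and 1.71 CPM in ha, at least 13.2-fold higher. Eif2ak2, the RNA-activated kinase PKR, was not called, at 66.0 and 68.4 CPM in EF and 64.1 and 112 CPM in ha, and neither were Samd9l and Ifi35.

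Isg20, an exonuclease of single-stranded RNA (ENSMUSG00000039236, chromosome 7, 78913424 to 78920396), was the gene called against the majority. It stood at 14.3 and 13.7 CPM in EF and 10.4 and 7.77 CPM in ha, and fell by 0.62 ± 0.20 on the log2 scale (adjusted p = 0.0373, edgeR). That call was lost under 9 of 17 alternatives, among them leaving out EF 1, EF 2, ha 2, hr 1-1 or hr 2-1, with adjusted p-values from 0.0156 to 0.265.

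**Figure D3:**
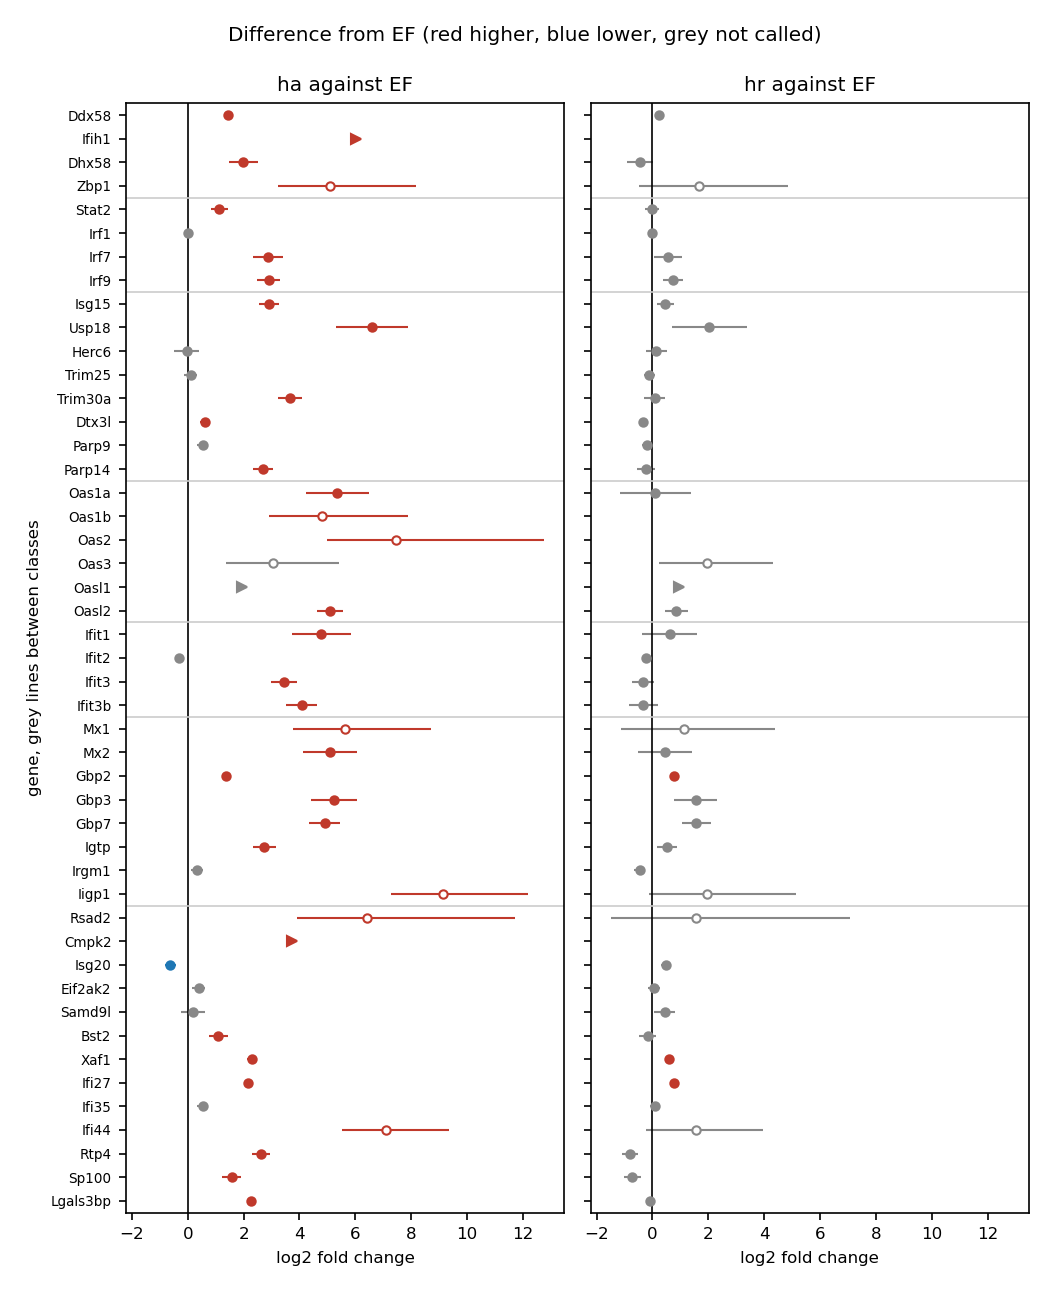
Log2 fold change (x axis) of each gene (y axis, by class) in ha against EF (left) and hr against EF (right). Filled points are fitted values with their SE, open points are ratios of summed counts with exact 95% intervals for genes with 1 to 3 counts in a group, and arrowheads are lower bounds for genes with 0 counts in EF. Red and blue mark genes called higher and lower and grey genes not called or not tested. In ha 35 genes lie right of 0 as called, in hr 3. Both panels share the EF libraries.

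With the EF pair and each hr line summed to 1 sample each, 19 of 47 genes were called higher in ha, against 2.74% of 15959 genes tested, and 0 lower. The 19 genes called higher in every alternative in which they were tested were Ddx58, Ifih1, Irf9, Isg15, Trim30a, Parp14, Oas2, Oasl2, Ifit3, Ifit3b, Mx1, Gbp3, Gbp7, Igtp, Iigp1, Xaf1, Ifi27, Rtp4 and Lgals3bp. Fewer of the 47 genes were called higher without EF 1, without EF 2 or without ha 2, and fewer of all genes were called in these fits as well. Dhx58, Dtx3l, Oas1a, Ifit1, Rsad2 and Ifi44 lost their call without EF 1 and without EF 2, and Zbp1, Usp18 and Oas1b without EF 2, with adjusted p-values up to 0.229. Some genes not called depended on which ha library was left out. Without ha 1, Irgm1 and Eif2ak2 were called higher (adjusted p = 0.00667 and 0.00453, edgeR) and Trim25 lower (-0.37, adjusted p = 0.0433). Without ha 2, Trim25 was called higher (0.46, adjusted p = 0.0175) and Herc6 and Ifit2 lower (-1.07 and -0.56, adjusted p = 0.0147 and 0.0156). Trim25 thus changed direction between the ha libraries, at 60.6 CPM in ha 1 and 34.1 CPM in ha 2 against 46.0 and 41.9 CPM in EF. Parp9 (0.53 ± 0.20, adjusted p = 0.0614) was called higher in 5 of 17 alternatives, with adjusted p-values of 0.00397 to 0.308 over all of them.

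Other genes of the pathway were taken from fixed lists, whose counts are to be read beside the 23.0% of all genes called higher and 19.6% called lower. Of 16 interferon ligand genes none had enough counts to test in experiment 2, and their summed level was at most 0.589 CPM in any of its libraries. Ifnb1, which encodes interferon beta, was at 0 in both EF libraries and in ha 1 and at 0.0589 CPM in ha 2. Among receptors and JAK kinases 2 of 8 rose, a share near that of all genes, and 0 fell: Ifngr1, a type II receptor chain (0.75 ± 0.19, 46.5 and 43.4 CPM in EF, 61.2 and 89.99 CPM in ha), and Ifnar2, a type I receptor chain (0.52 ± 0.17, 34.7 and 30.3 CPM in EF, 49.6 and 43.7 CPM in ha). Ifnar1, the other type I chain, was not called (0.29 ± 0.19). Of 9 STATs and IRFs outside the 47 genes 3 rose, Stat6 (0.41 ± 0.11) and Stat3 (1.08 ± 0.35) among them, and Irf3 fell by 0.44 ± 0.14. Of 13 adaptors and kinases of sensing 5 rose, Myd88 (0.84 ± 0.13) among them, and Tbk1 fell by 0.59 ± 0.10. Of 10 feedback inhibitors Pias1 rose (0.78 ± 0.18), and Samhd1 and Ptpn6 fell by 1.14 ± 0.21 and 2.21 ± 0.41. A list of 62 tested further interferon-induced genes held 31 that rose and 2 that fell; by p-value the first were Mlkl, which fell by 1.38 ± 0.10, Irgm2 (3.14 ± 0.23) and Sp110 (4.81 ± 0.39).

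Other cell-type and growth markers also moved between these groups. All 8 proliferation genes fell in ha (19.6% of all genes did), with sums of 1663 and 1677 CPM in EF and 419.9 and 744 CPM in ha. The 3 epithelial markers tested fell as well, and of 12 mesenchymal markers 6 rose and 2 fell. Of 16 hematopoietic markers 3 could be tested and 2 rose. They summed to 9.30 and 9.65 CPM in EF and 13.2 and 29.8 CPM in ha, with 7 of the 16 at 0 counts in ha, Ptprc and Adgre1 among them. The part of these differences in the result above was not tested.

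Between hr and EF few of the 47 genes differed. Of 46 tested, 3 rose (6.52%, background 3.88%) and 0 fell (background 3.07%) by edgeR. An unadjusted p under 0.05 in either direction was found for 9, and the share of all genes with such a p is not given here. DESeq2 called 3 higher and 0 lower, limma-voom 2 and 0. Over all genes edgeR called 973 in either direction, DESeq2 1973 and limma-voom 721. The median log2 fold change was 0.33, against 0.0087 over all genes. Gbp2 stood at 13.5 and 15.1 CPM in EF and at 23.2, 23.7, 25.4 and 26.4 CPM in hr (0.79 ± 0.13, adjusted p = 0.0189, edgeR). Ifi27 stood at 23.9 and 27.1 CPM in EF and at 48.8, 43.2, 39.6 and 41.3 CPM in hr (0.76 ± 0.14, adjusted p = 0.0233). Xaf1 rose by 0.61 ± 0.14 (adjusted p = 0.0445), from 8.24 and 9.57 CPM to 11.9 to 14.8 CPM. The Xaf1 call was lost in 10 of 17 alternatives: without any 1 of the EF or hr libraries, without a filter, with limma-voom, with the replicate block and with close libraries summed. Those of Gbp2 and Ifi27 were lost in 4 and 5, and adjusted p-values of all 3 reached 0.916. None of these 3 genes, picked by their calls, overlapped between the groups, and the share of all genes without overlap was not counted. The count fell to 0 without EF 1, without EF 2 or with close libraries summed, where 0 genes of the whole table were called, and to 1 without hr 2-1 or without hr 1-2. With an ha library left out of the shared fit, or with EF and hr fitted alone, Irgm1 was called lower in hr. At 86.2 to 98.3 CPM in hr against 128 and 127 CPM in EF, it gave -0.46 ± 0.19 (adjusted p = 0.18, and 0.0197 to 0.916 over the alternatives).

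Genes with large differences in ha gave the following values in hr. Oasl2 stood at 1.43, 0.935, 2.64 and 2.31 CPM (0.86 ± 0.42, adjusted p = 0.245, edgeR) and Isg15 at 3.37, 2.98, 5.13 and 6.12 CPM (0.47 ± 0.32, adjusted p = 0.393). Ifit1 stood at 0.168, 0.51, 3.14 and 3.02 CPM, below EF in line uns-1 and above it in line uns-2. Irf9 stood at 4.46, 6.55, 10.5 and 10.6 CPM (0.72 ± 0.36, adjusted p = 0.251). Lgals3bp stood at 22.0, 22.4, 21.9 and 22.6 CPM, a log2 difference of -0.09 ± 0.09. Ddx58, at 32.1 to 36.3 CPM, lay above both EF values without a call (0.23 ± 0.10, adjusted p = 0.183). Ifit3 (-0.33 ± 0.40), Stat2 (-0.02 ± 0.25), Irf1, Irf7, Usp18, Dhx58, Bst2 and Eif2ak2 overlapped between the groups. Zbp1, Mx1 and Rsad2 had 13, 9 and 6 counts over the 4 hr libraries and Ifih1 2, none of them called. A p that misses the threshold does not show that the groups are equal. Ifnar1 (0.11 ± 0.16) and Ifnar2 (-0.15 ± 0.15) were not called, and Ifnb1 was at 0 in 3 hr libraries and at 0.177 CPM in hr 2-2. Of 62 further interferon-induced genes Sp110 rose (2.86 ± 0.37) and Mov10 and Psmb10 fell by 0.53 ± 0.09 and 0.78 ± 0.17. Of 13 adaptors and kinases of sensing 1 rose and 0 fell, and of 9 STATs and IRFs Stat5b fell by 0.56 ± 0.09. Beside the 3.88% and 3.07% of all genes called higher and lower, these lists hold few calls. Of the markers, 2 of 3 epithelial genes rose and 1 of 8 proliferation genes fell; the part of either was not tested.

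**Figure D4:**
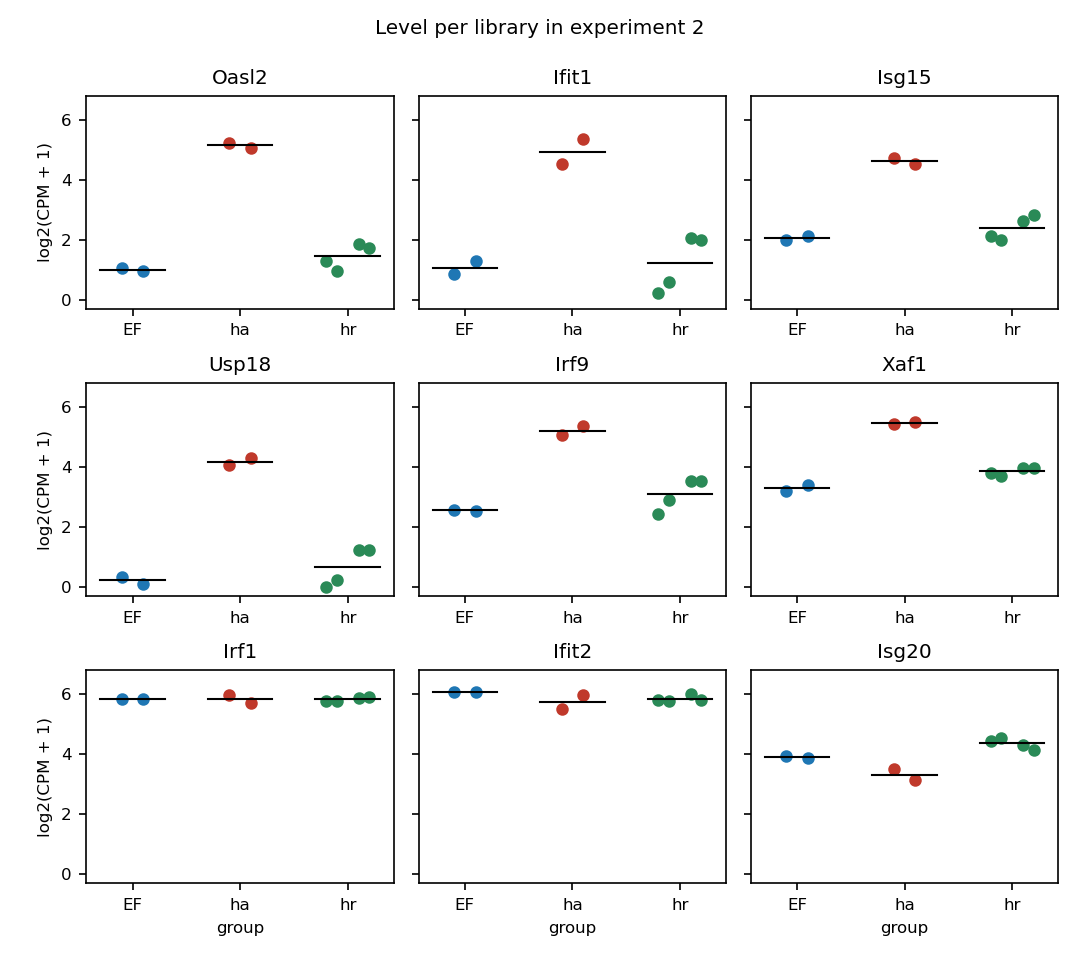
Level of 9 genes in each library of experiment 2, as log2(CPM + 1) on the y axis, by group on the x axis; points are libraries, black bars are group means, and the hr points run from hr 1-1 to hr 2-2. For Oasl2, Ifit1, Isg15, Usp18, Irf9 and Xaf1 both ha libraries lie above all others; Irf1 overlaps between all groups, Ifit2 lies lower in ha than in EF without a call, and Isg20 lies lowest in ha.

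Set directly against ha, hr had lower levels of most of the 47 genes: 37 of 46 (80.4%) were lower and 1 (2.17%) higher, against 21.5% and 17.9% of all genes. This comparison shares the ha libraries with the one of ha against EF, so the 2 are not independent. The median log2 difference was -2.39, against -0.0036 over all genes. All 8 GTPases, all 4 sensors, 6 of 8 genes of the ISG15 class, 3 of 4 STAT and IRF factors, 4 of 5 OAS genes, 3 of 4 IFIT genes and 9 of 13 other effectors were lower. With close libraries summed, 24 of 47 were lower, against 5.28% of all genes, and 0 higher.

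Lgals3bp again had the lowest adjusted p (fell by 2.34 ± 0.08, adjusted p = 6.09e-06, edgeR). The log2 difference was -4.23 ± 0.32 for Oasl2, -4.17 ± 0.76 for Ifit1, -3.77 ± 0.36 for Ifit3, -4.55 ± 0.81 for Usp18 and -2.43 ± 0.28 for Isg15. It was -1.68 ± 0.13 for Xaf1, -4.78 ± 0.94 for Rsad2, -4.41 ± 0.44 for Mx1 and -1.27 ± 0.28 for Bst2. Among the factors it was -2.34 ± 0.41 for Irf7, -2.18 ± 0.31 for Irf9 and -1.16 ± 0.24 for Stat2. Among the sensors it was -1.21 ± 0.09 for Ddx58, -2.43 ± 0.43 for Dhx58 and -3.34 ± 0.83 for Zbp1. Without ha 2 the calls of Stat2, Zbp1 and Parp9 were lost, and without ha 1 that of Bst2, with adjusted p-values over all alternatives of up to 0.0933, 0.187, 0.12 and 0.0794. Genes with 1 or 2 counts over the 4 hr libraries gave ratios of 0.00504 (Ifih1), 0.00552 (Oas2), 0.00871 (Oas1b) and 0.0123 (Cmpk2), with upper 95% limits of 0.0184, 0.0202, 0.0501 and 0.0716. Iigp1 fell by 7.06 ± 0.73 and Ifi44 by 5.47 ± 0.94.

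Isg20 was the 1 gene higher in hr, at 20.8, 22.3, 19.0 and 16.8 CPM against 10.4 and 7.77 CPM in ha (1.11 ± 0.18, adjusted p = 0.00258, edgeR), a call lost only with close libraries summed (adjusted p = 0.0663). Irgm1 and Parp9, not called in ha against EF, were lower here (-0.78 ± 0.19 and -0.72 ± 0.17). Irf1, Herc6, Trim25, Oas3, Ifit2, Eif2ak2, Samd9l and Ifi35, 8 genes in all, were called in none of the 3 comparisons of EF, ha and hr. Of these, Herc6 and Samd9l were called higher and Trim25 lower in hr than in ha without ha 2 (adjusted p = 0.00934, 0.0275 and 0.0067, edgeR), and Eif2ak2 lower without ha 1 (0.0043). Of 9 STATs and IRFs 3 fell and 1 rose, Stat5b by 0.43 ± 0.09 and Irf2 by 0.41 ± 0.12 among those that fell. Of 8 receptors and kinases 2 fell, Ifnar2 and Ifngr1, by 0.67 ± 0.15 and 0.54 ± 0.16, a share near the 21.5% of all genes, while Ifnar1 was not called (-0.18 ± 0.16). Of 13 adaptors and kinases of sensing 4 fell, Myd88 and Tmem173 by 0.89 ± 0.10 and 1.79 ± 0.34, and Tbk1 rose by 0.35 ± 0.09. Of 62 further interferon-induced genes 35 fell and 3 rose, led by Irgm2, Gbp6 and Gbp10, which fell by 2.63 ± 0.17, 4.56 ± 0.33 and 3.38 ± 0.26. Among 10 feedback inhibitors 2 fell, Pias1 and Trex1 by 0.79 ± 0.15 and 1.42 ± 0.29, and 3 rose, Ptpn6 first by p-value (1.37 ± 0.37). Of the markers, 7 of 8 proliferation genes and 3 of 3 epithelial genes tested were higher in hr than in ha; the part of either was not tested.

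The 2 hr lines differed from each other in 13 of these genes. Of 46 tested, 10 were lower in line uns-1 than in line uns-2 (21.7%) and 3 higher (6.52%), where 10.7% of all genes were lower and 10.7% higher. Ifit1 stood at 0.168 and 0.51 CPM in uns-1 and at 3.14 and 3.02 CPM in uns-2 (fell by 3.15 ± 0.59, adjusted p = 0.013, edgeR). Gbp3 (fell by 1.91 ± 0.43), Oasl2 (by 1.06 ± 0.24), Trim30a (by 1.06 ± 0.22) and Irf9 (by 0.94 ± 0.21) were also lower, as were Isg15, Igtp, Mx2, Oas3 and Usp18, the last with a ratio of 0.0645 (0.00751 to 0.252). Dhx58 (1.30 ± 0.33) and Parp9 (0.45 ± 0.10) were higher in uns-1.

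Bst2 ran against those 10 genes: it stood at 27.6 and 28.2 CPM in uns-1 and 15.5 and 14.8 CPM in uns-2 (0.88 ± 0.11, adjusted p = 0.00293, edgeR), a call kept in all 14 alternatives. The 10 lower calls were not: their count was 6 without EF 1 or without EF 2, 0 without hr 2-1 or without hr 2-2, 1 without hr 1-1, 2 without hr 1-2, 17 without ha 2 and 16 without ha 1. The 3 higher calls became 1 without any 1 of the EF or hr libraries and 9 without either ha library. Stat2 (0.57 ± 0.22), Irf7, Irf1, Ddx58, Ifih1, Ifit3, Xaf1, Mx1, Rsad2, Zbp1 and Eif2ak2 were not called, and neither was Ifnar2. Stat2, Ifit3 and Eif2ak2 were called without ha 1 and without ha 2, with adjusted p-values over the alternatives of 7.81e-05 to 0.321, 0.000199 to 0.454 and 0.0135 to 0.83. Among pathway genes Ifnar1 (0.43 ± 0.09), Tyk2 (0.84 ± 0.18), Ticam1 (0.68 ± 0.08), Pias1 (0.39 ± 0.09), Tap2 (1.25 ± 0.07) and Gbp9 (1.18 ± 0.08) were higher in uns-1. Of 62 further interferon-induced genes 9 were higher and 4 lower, beside 10.7% of all genes in each direction. Jak1 fell by 0.32 ± 0.06, Tmem173 by 1.04 ± 0.21, Adar by 0.49 ± 0.10, Samhd1 by 0.49 ± 0.08, Ptpn11 by 0.43 ± 0.08 and Rnf213 by 1.57 ± 0.13. Of the markers, 3 of 8 proliferation genes were lower and 5 of 12 mesenchymal and 2 of 3 epithelial genes higher in uns-1; their part was not tested.

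In experiment 1, few of the genes were called between EFPrx1MSCLC and MSC. Of 47 genes tested 1 was higher in EFPrx1MSCLC (2.13%) and 0 lower, where 7.70% of 14596 genes were higher and 12.1% lower. By edgeR 4 had an unadjusted p under 0.05 in either direction, and the share of all genes with such a p is not given here. DESeq2 called 3 higher and 1 lower, and limma-voom 1 and 1. Over all genes edgeR called 2887 in either direction, DESeq2 4598 and limma-voom 3089. The median log2 fold change was 0.18, against 0.04 over all genes. Irgm1 (ENSMUSG00000046879, chromosome 11, 48861968 to 48871683) was the 1 gene called, at 76.3, 38.4 and 45.3 CPM in MSC and 198, 253, 242 and 247 CPM in EFPrx1MSCLC (2.14 ± 0.31, adjusted p = 0.00499, edgeR), and it kept that call under all 12 alternatives.

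The spread within each group was wide. The median SD of log2(CPM + 1) over the EFPrx1MSCLC libraries was 1.66 for the 47 genes and 0.362 for all genes tested, and over the MSC libraries 0.866 and 0.402. In EFPrx1MSCLC the libraries 219 and 225 were the 2 highest of 4 for 45 of the 47 genes, while that was so for 26.3% of all genes. Library 202 was the highest of the 3 MSC libraries for 42 of the 47 genes, against 49.1% of all genes. The mean log2(CPM + 1) over the 47 genes was 6.18, 3.19, 5.98 and 3.37 in EFPrx1MSCLC 219, 221, 225 and 229, and 5.75, 4.55 and 4.43 in MSC 202, 234 and 237. These libraries are replicates of their labelled groups, and no test was made between them.

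Single genes show the same order of libraries. Oasl2 stood at 153, 5.70, 140.4 and 6.21 CPM in EFPrx1MSCLC 219, 221, 225 and 229 and at 163, 41.5 and 28.0 CPM in MSC 202, 234 and 237 (-0.025 ± 1.23, adjusted p = 0.991, edgeR). Isg15 stood at 135, 4.98, 88.5 and 6.24 CPM and at 84.1, 105 and 82.7 CPM in MSC (-0.63 ± 1.05, adjusted p = 0.697). Both genes had 2 EFPrx1MSCLC libraries far below every MSC library. Ifit1 reached 660.0 CPM in library 225 and 177 CPM in 219, with 9.19 and 10.1 CPM in 221 and 229 and 152, 46.8 and 46.8 CPM in MSC (1.38 ± 1.42, adjusted p = 0.509). Usp18 stood at 58.0, 4.404, 53.1 and 4.02 CPM in EFPrx1MSCLC and at 54.4, 23.5 and 24.2 CPM in MSC. Irf9 differed less between libraries, at 61.8, 23.6, 81.2 and 20.3 CPM and at 69.2, 46.9 and 40.1 CPM.

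Ifit2 came near the threshold: it stood at 389, 38.0, 186 and 38.7 CPM in EFPrx1MSCLC and at 27.1, 5.44 and 3.96 CPM in MSC, without overlap (3.73 ± 1.15, adjusted p = 0.0583, edgeR). It was called without MSC 202 and by DESeq2, with adjusted p-values from 0.000573 to 0.184 over the alternatives. Bst2, Oas1a and Oasl1 did not overlap either and had lower values in EFPrx1MSCLC without a call (adjusted p = 0.203, 0.212 and 0.0749, edgeR). The share of all genes that did not overlap was not counted. Bst2 stood at 257, 51.3, 305 and 107 CPM against 388, 439.8 and 337 CPM in MSC. Without MSC 202 the higher calls became 4, namely Irgm1, Ifit2, Eif2ak2 and Samd9l. In the same fit, calls over all genes in either direction went from 2887 to 5087. Without EFPrx1MSCLC 219, 2 lower calls appeared, Zbp1 and Oasl1, with 2627 calls over all genes. Xaf1, Ifit3, Rsad2, Mx1, Irf7, Irf1, Stat2, Ddx58, Ifih1, Dhx58, Zbp1 and Eif2ak2 were not called, and Mx1, at 86.1, 0.574, 38.0 and 0.694 CPM against 3.14, 0.529 and 1.01 CPM, had an adjusted p of 0.136. DESeq2 called Mx1 higher (adjusted p = 0.00773) and Oasl1 lower (0.0254), and limma-voom called Zbp1 lower (0.0424); over the alternatives the adjusted p of these genes ran from 0.00773 to 0.616, 0.0254 to 0.204 and 0.0208 to 0.541.

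**Figure D5:**
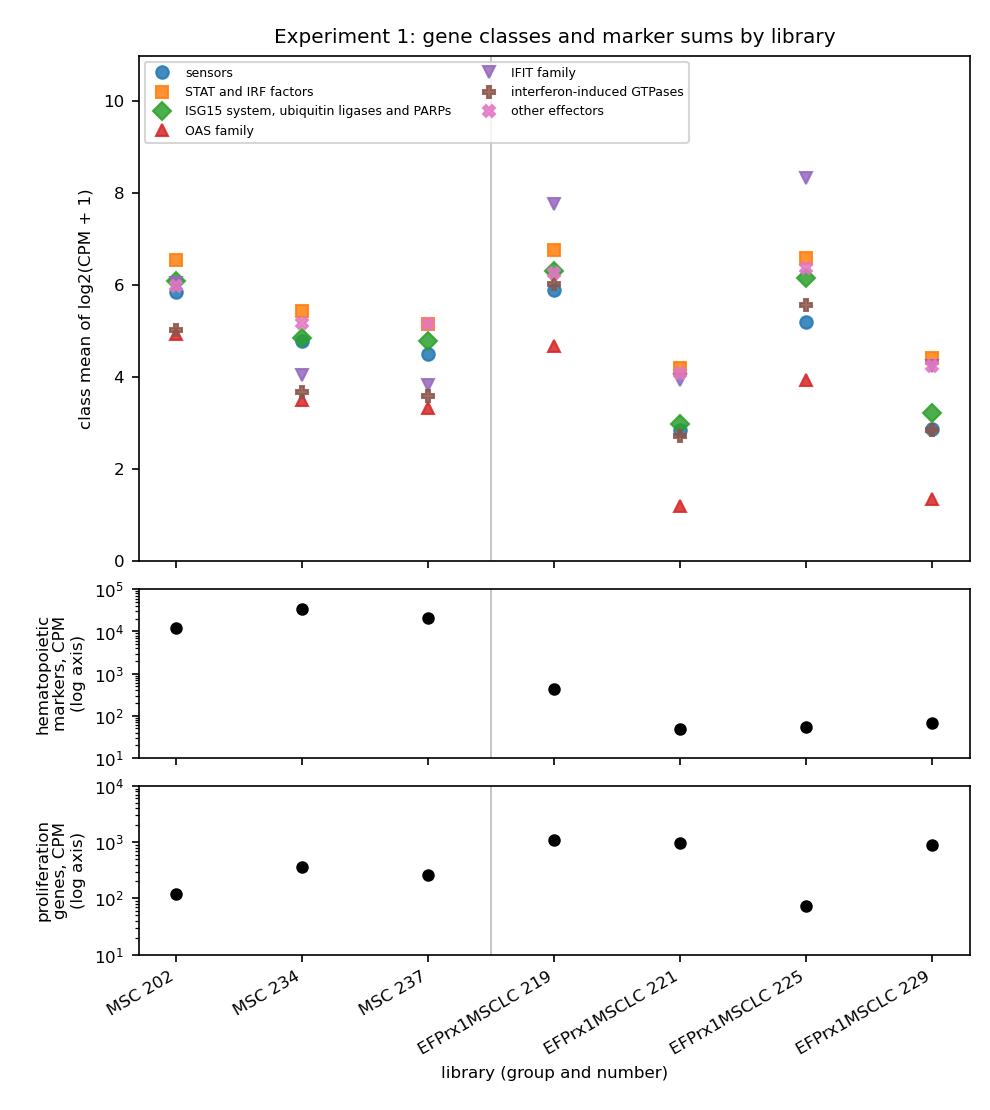
Mean log2(CPM + 1) of each gene class in the 7 libraries of experiment 1 (top), with the summed CPM of 16 hematopoietic and macrophage markers (middle, log axis) and of 8 proliferation genes (bottom, log axis). All 7 classes lie higher in EFPrx1MSCLC 219 and 225 than in 221 and 229, while the hematopoietic sum of 225 (54.5 CPM) lies between those of 221 (49.6 CPM) and 229 (66.5 CPM).

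Hematopoietic markers summed to 12388, 34551 and 21089 CPM in MSC 202, 234 and 237 and to 436, 49.6, 54.5 and 66.5 CPM in EFPrx1MSCLC 219, 221, 225 and 229, and 15 of the 16 were lower in EFPrx1MSCLC. Thus library 225 had class levels like those of library 219 with a marker sum like those of 221 and 229, and MSC 202, highest for most of the 47 genes, had the lowest sum in MSC. The 8 proliferation genes summed to 1089, 973, 72.4 and 880.5 CPM in EFPrx1MSCLC 219, 221, 225 and 229 and to 119, 360.0 and 262 CPM in MSC 202, 234 and 237, with 0 of 8 called. Endothelial markers summed to 35.9, 116, 3.01 and 109 CPM in EFPrx1MSCLC 219, 221, 225 and 229, lower in the libraries where most of the 47 genes were higher, and to 39.7, 27.9 and 21.0 CPM in MSC. Mesenchymal markers summed to 8996, 11106, 4486 and 10568 CPM in EFPrx1MSCLC, lowest in 225, and to 16037 to 20060 CPM in MSC. Epithelial markers summed to 4.14, 7.23, 0.128 and 5.48 CPM in EFPrx1MSCLC. The part of these marker lists in the levels of the 47 genes was not tested.

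In the pathway lists of experiment 1, Ifnar2 and Il10rb, a receptor chain shared with type III interferon, were lower in EFPrx1MSCLC, by -1.63 ± 0.19 and -1.91 ± 0.26, and Ifnar1 was not called (-0.89 ± 0.31, adjusted p = 0.0808, edgeR). Irf5 and Irf8, factors of macrophages and other blood cells, fell by 1.88 ± 0.33 and 6.02 ± 1.26. Mavs, the adaptor of the RNA sensors, rose (1.12 ± 0.24) and Ticam1 rose (0.96 ± 0.24), while Myd88 fell by 1.30 ± 0.26 and Tlr7, an RNA sensor of immune cells, by 5.49 ± 1.36. Ptpn6, Irf2bp2 and Socs3 fell by 5.02 ± 0.70, 1.73 ± 0.25 and 2.92 ± 0.49. Of 67 further interferon-induced genes 8 fell and 3 rose. Beside 12.1% of all genes lower and 7.70% higher, neither share stood above that of all genes. By p-value the first were Slfn5, Ifi30 and Slfn2, which fell by 6.57 ± 0.88, 2.46 ± 0.35 and 3.27 ± 0.51. Ifnb1 had counts in 2 of 7 libraries, 0.384 CPM in EFPrx1MSCLC 225 and 0.0347 CPM in 229, and the 16 interferon ligand genes summed to at most 1.23 CPM in any library.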

How the data were processed

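The values deposited by the authors were RSEM expected counts, estimates per gene that can hold fractions. Per the submitters' processing notes, STAR, RSEM and GRCm38.p6 were used; tool versions, gene annotation and strand setting: not given in the sources used here. The exons of 17 of the 47 genes overlap another gene in GENCODE M21, and RSEM divides reads between near-identical copies (Ifit3 and Ifit3b, Oas1a and Oas1b, the Gbp genes), so their values are uncertain. Symbols and positions were matched by identifier for 55230 of 55471 genes; 2 listed symbols outside the 47 had no row.

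Expected counts were rounded (8.27% were not whole). Genes were filtered with filterByExpr (minimum count 10), scaled by TMM and tested with edgeR's quasi-likelihood test (glmQLFit, robust, two-sided). Testing went experiment by experiment, with adjustment over all genes tested. The steps were also run on simulated counts of independent libraries with the same spread for all genes. That simulation does not cover close library pairs or the uneven spread between groups seen here. CPM are TMM-scaled within each experiment. Alternatives were DESeq2 size factors, no filter, a filter of 5 CPM, DESeq2, limma-voom, each library left out, the title number as a block, the compared groups alone, close libraries summed, and hr as 2 groups. Named genes are 18 fixed members with Ifnar1, Ifnar2 and Ifnb1, the 6 called members of largest change in each direction with at least 1 CPM in the higher group, members called against the majority, and up to 3 called genes of each pathway list by p-value; a few others were named after their values were seen, and some genes that the rule picks are not reported here. The 47 genes and the lists were chosen with earlier results of these data known. Fits ran in R 4.3.3 with DESeq2 1.42.0, limma 3.58.1 and edgeR 4.0.16.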

Additional observations from a re-analysis of the deposited data

Results flagged for a closer look

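In groups of 4 libraries, a library far from the other 3 was looked for in each of the 47 genes, in 94 sets of values in all, and chance alone marks about 5% of such sets. In EFPrx1MSCLC the library 219 stood far above the other 3 for Zbp1 (45.7 CPM, next 3.91), Irf1 (196 CPM, next 47.9), Oas3 (47.1 CPM, next 8.45) and Gbp2 (126 CPM, next 25.4). In hr, Ifit2 was highest in hr 2-1 (63.1 CPM, next 55.3). Of the remaining values, Oas1b (0.0713 CPM in hr 2-1), Cmpk2 (0.0713 CPM in hr 2-1) and Rsad2 (0.444 CPM in hr 2-2) rest on a few counts.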

How the results depend on the processing

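None of the 91 called gene results changed direction under an alternative. Of 140 gene results not called, 57 had both signs over the alternatives, and 1 of these was called in the other direction: Trim25 in ha against EF without ha 1, adjusted p = 0.0433 (0.0175 to 0.955 over the libraries left out). Counts of called genes follow for alternatives that left out no library. They include those that moved by more than 1.5 times and some that moved less or not at all. With DESeq2, EFPrx1MSCLC against MSC had 3 higher and 1 lower, and with limma-voom 1 lower; uns-1 against uns-2 had 1 higher with DESeq2 and 3 lower with limma-voom. Without a filter, ha against EF had 0 lower and uns-1 against uns-2 5 higher. Differences between the 2 libraries of a group or line correlated at -0.0368 to 0.0187 with those of the other groups. The EF and hr differences lie near counting noise, so these correlations cannot show whether the numbers pair the libraries. With the replicate block, ha against EF had 34 higher and 0 lower and hr against EF 1 higher; it gave 37 lower and 1 higher in hr against ha and 2 higher and 7 lower in uns-1 against uns-2. With only the compared groups, ha against EF had 0 lower and hr against EF 1 lower. With close libraries summed, ha against EF had 19 higher and 0 lower, hr against EF 0 higher, and hr against ha 24 lower and 0 higher. With hr as 2 groups, hr against EF had 5 higher, with 3674 calls over all genes in either direction against 973 in the main fit.

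Leaving out 1 library at a time gave 1 to 4 higher and 0 to 2 lower for EFPrx1MSCLC against MSC, 24 to 36 higher and 0 to 2 lower for ha against EF, 0 to 3 higher and 0 to 1 lower for hr against EF, 1 to 3 higher and 35 to 37 lower for hr against ha, and 1 to 9 higher and 0 to 17 lower for uns-1 against uns-2. Calls over all genes shifted between these fits as well, and the cause of these shifts was not tested. Where an arm keeps 1 library, it is assumed to vary like the other groups. Depth limits genes such as Oas1b, Cmpk2 and Ifih1, with 0 to 3 counts in EF or hr.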

Other observations

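Trim25, a ubiquitin ligase that acts on RIG-I, was nearly without counts in 2 libraries of experiment 1: it stood at 0.0479 and 0.59 CPM in EFPrx1MSCLC 221 and 229, against 47.3 and 65.5 CPM in 219 and 225, 44.5 to 83.2 CPM in MSC and 34.1 to 60.6 CPM in the 8 libraries of experiment 2, whose titles also carry the number 221. The experiments were scaled separately, and no test was made between them. This gene was picked after its values were seen.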
